A study of Homo sapiens with 4 samples.

Results

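GapR, a bacterial protein from Caulobacter, has affinity for overtwisted (positively supercoiled) DNA. A GapR-GFP fusion was located on the genome of HCT116 cells, an established line from a human colorectal carcinoma, by CUT&RUN, which releases the DNA beside a protein bound by antibody. The sites described below are autosomal peaks found with both wild-type libraries whose summits lay more than 20 kb outside every RefSeq gene span of any class, that is, far from protein-coding genes, lncRNA genes, short RNA genes and pseudogenes alike. Of 31515 such shared autosomal peaks, 1892 met this rule, a share of 6.00% (95% Wilson interval 5.75 to 6.27%, which covers counting error only). A peak counted as shared where it was called with WT replicate 1 and overlapped by at least 1 bp a peak called with WT replicate 2, and it was placed by its summit in WT replicate 1. These sites were thus chosen by the deposited peak calls and summit positions of the same WT libraries, so their number, level and overlap are given as descriptions with no test.

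The WT group held 2 libraries of cells with wild-type GapR-GFP, and the MT group held 2 libraries. The genotype label gives the MT cells as a double knockout of TOP2A and TOP2B, the genes of the type II topoisomerases, whereas the design text of the series describes a mutant GapR-GFP. The protocol labels of all 4 libraries give palbociclib, a CDK4/6 inhibitor that arrests cells in G1, at 2 µM for 28 h, whereas the design text describes an asynchronous culture. The files used here did not settle either point, so the group is called MT. The peaks of each WT library were called over MT replicate 1, and MT replicate 2 was not analysed here. Filtered fragments numbered 21774260 for WT replicate 1, 27443146 for WT replicate 2 and 23356540 for MT replicate 1. Both lists share that 1 MT library, and nothing in the labels says that the WT replicates came from separate cultures.

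As background, an RNA polymerase that cannot turn freely overtwists the DNA ahead of it and undertwists the DNA behind it, and topoisomerases relax both. DNA far from genes includes distal enhancers, which can act over long distances and are themselves often transcribed, the gene deserts that flank many developmental genes, and the satellite repeats of centromeres. Reads from satellite arrays are hard to place, since the repeats are nearly identical. In the hg38 assembly the centromeres are filled with models of such arrays.

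In the densities below, far DNA is the part of the gaps between neighbouring gene spans that lies more than 20 kb from both. It amounted to 621.8 Mb, or 22.2% of the autosomal DNA between the first and the last gene of each chromosome. Shared peaks stood at 3.04 per Mb of far DNA, against 13.6 per Mb in the rest. Assembly gaps of unknown sequence were not taken off, so the densities of long gene-free stretches are understated where they hold such gaps.

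Outside genes the density of shared peaks was lower the farther they lay from a gene, up to 200 kb, and higher again beyond that distance. It was 13.5 per Mb inside genes, 23.1 per Mb within 5 kb of one and 7.55 per Mb from 5 to 20 kb. Beyond the 20 kb limit it was 3.89 per Mb from 20 to 50 kb, 2.13 from 50 to 100 kb, 0.978 from 100 to 200 kb, 1.52 from 200 to 500 kb and 4.70 over 500 kb. All peaks of WT replicate 1, shared or not, showed the same course, with 9.30 per Mb from 20 to 50 kb, 3.44 from 100 to 200 kb and 17.4 over 500 kb. All peaks of WT replicate 2 had 4.85, 1.88 and 16.8 per Mb at those distances.

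**Figure D1:**
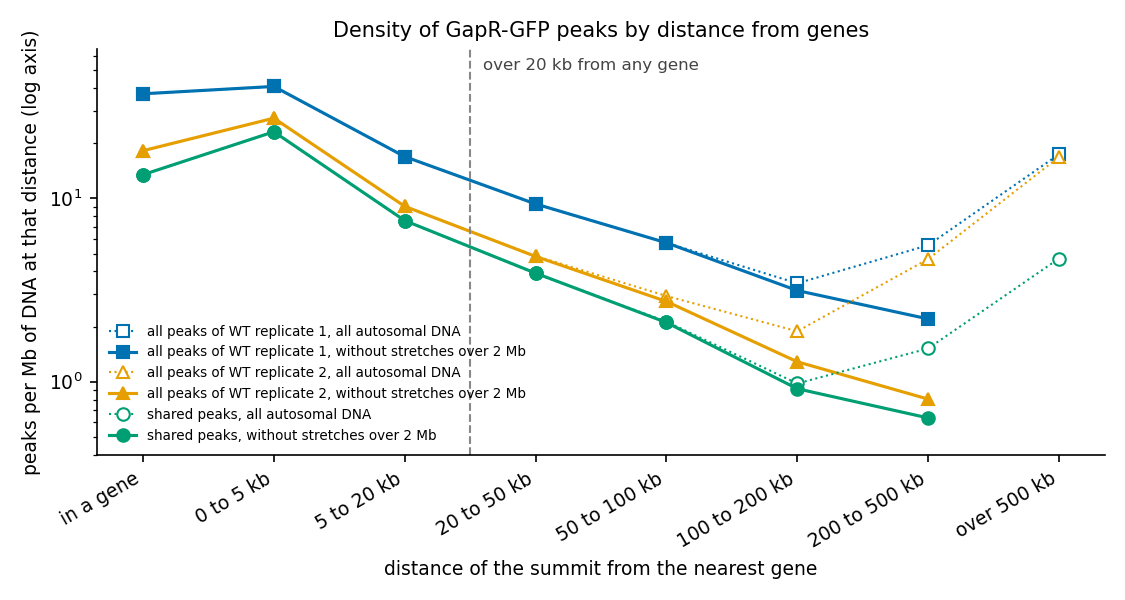
Peaks per Mb of autosomal DNA (log axis) in classes of distance from the nearest gene, for all peaks of each WT replicate and for shared peaks. Open symbols include all DNA between genes and filled symbols leave out the 21 gene-free stretches over 2 Mb; shared peaks fall to 0.635 per Mb at 200 to 500 kb without those stretches and stand at 4.70 per Mb over 500 kb with them.

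The upturn came from 21 gene-free stretches longer than 2 Mb, a limit chosen after the distances were seen. Each lies where hg38 has a centromere or the heterochromatin beside it, a placement that is background knowledge and not in the deposited lists. These stretches, with 3 sites before the first gene of chromosome 15, held 459 far shared peaks (24.3%), and they held all 400 that were over 500 kb from a gene. The other 1433 (75.7%) lay in shorter stretches, at most 490.29 kb from a gene, with a median distance of 34.2 kb. Without the long stretches the density at 200 to 500 kb was 0.635 per Mb and that at 100 to 200 kb was 0.916 per Mb.

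Both zones differed in how often the WT libraries found the same site. In the long stretches 1695 peaks of WT replicate 1 and 1708 of WT replicate 2 were called. Of those, 27.1% of the peaks of WT replicate 1 (95% Wilson interval 25.02 to 29.2%) overlapped one of WT replicate 2, and 27.1% of the peaks of WT replicate 2 (25.1 to 29.3%) overlapped one of WT replicate 1. In the shorter stretches 3616 peaks of WT replicate 1 and 1802 of WT replicate 2 lay far from genes. There 39.6% of the peaks of WT replicate 1 (38.0 to 41.2%) and 83.9% of those of WT replicate 2 (82.1 to 85.5%) were found in the other list. Over all autosomal peaks those shares were 39.2% and 84.6%, so the shares of the shorter stretches were near those of peaks in general, while those of the long stretches lay below them, in WT replicate 2 most of all. Counting error only is covered by these intervals, and neighbouring peaks are not independent.

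Fold enrichment, the authors' value for each peak within its list, is the WT fragment pileup at the summit over the local MT level, with 1 added to each. Where a shared peak overlapped several peaks of WT replicate 2, the one with the highest fold gave all values for WT replicate 2. That choice can only raise the folds of WT replicate 2. For far shared peaks of the shorter stretches its median was 5.57 (quartiles 4.47 and 7.17) in WT replicate 1 and 4.38 (quartiles 3.66 and 5.37) in WT replicate 2. In the long stretches it was 3.07 (quartiles 2.62 and 3.59) in WT replicate 1 and 3.22 (quartiles 2.67 and 3.66) in WT replicate 2. Shared peaks 5 to 20 kb from a gene had medians of 5.77 and 4.57 in WT replicates 1 and 2, and those within 5 kb had 6.57 and 5.17. The far peaks of the shorter stretches thus stood close to the peaks 5 to 20 kb from genes, and those of the long stretches stood below every other class in both WT libraries.

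**Figure D2:**
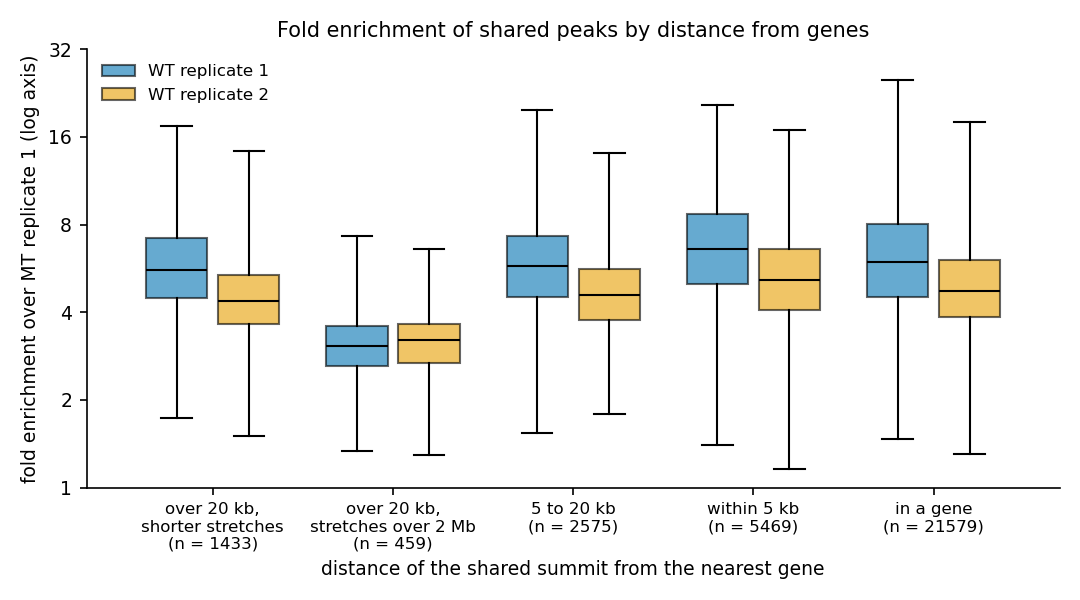
Fold enrichment over MT replicate 1 (log axis) in both WT replicates for shared peaks in 5 classes of distance from genes. Boxes span the quartiles with the median as a line, and whiskers reach the lowest and highest peak; the 459 far peaks of stretches over 2 Mb, which include 3 before the first gene of chromosome 15, have medians of 3.07 and 3.22, and the 1433 of shorter stretches have medians of 5.57 and 4.38.

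The local MT level, computed back from pileup and fold and expressed at the depth of the WT library, also separated the zones. Its floor, the genome-wide background, was 1.87 fragments in the list of WT replicate 1 and 2.20 in that of WT replicate 2. At that floor stood 25.9% of the far shared peaks of the shorter stretches in the list of WT replicate 1 and 22.7% in that of WT replicate 2. In the long stretches the shares were 6.10% and 3.92%. Over all shared peaks they were 36.5% and 32.9%. The median WT pileup was 19 fragments in WT replicate 1 and 17 in WT replicate 2 for the shorter stretches, against median MT levels of 2.38 and 2.92. For the long stretches the median WT pileup was 14 and 16 fragments, against MT levels of 3.73 and 4.32. The lower folds of the long stretches thus went with higher MT levels as well as with lower WT pileups, and what part either takes was not tested.

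**Figure D3:**
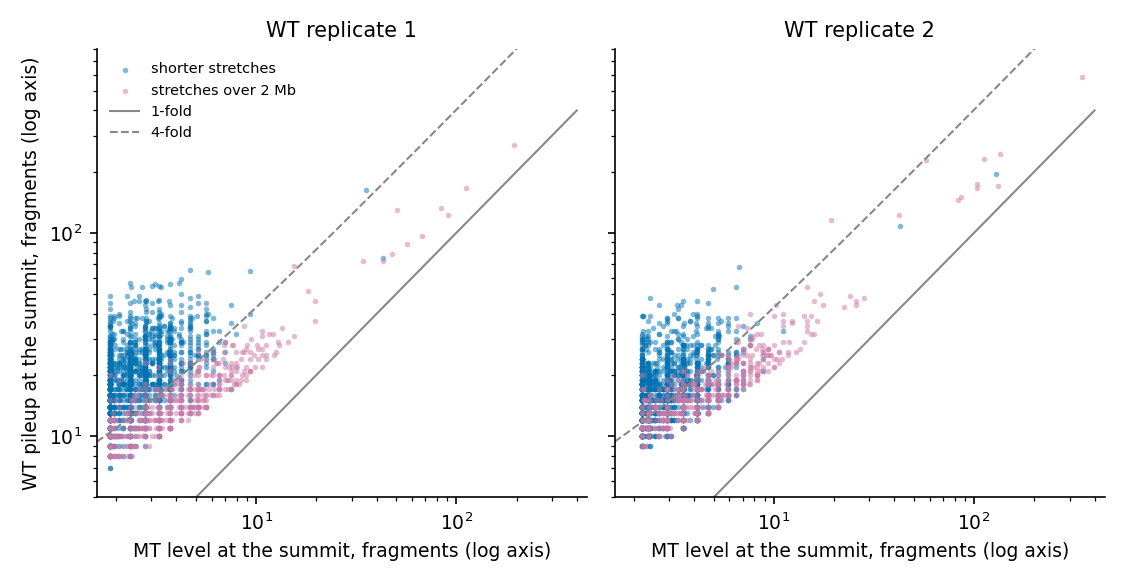
WT pileup against the local MT level at the summit of each far shared peak, in fragments on log axes, for WT replicate 1 (left) and WT replicate 2 (right). The solid line marks equal levels and the dashed line 4-fold enrichment (with 1 added to both levels); points of stretches over 2 Mb lie to the right, with 34 of 459 above an MT level of 10 in the list of WT replicate 1, against 2 of 1433 in shorter stretches.

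At some centromeric sites of high coverage the MT level was high as well. On chromosome 17 (26883964 to 26884280 in hg38) a site had 167 and 244 WT fragments, against MT levels of 112 and 135, with folds of 1.48 and 1.80. On chromosome 10 (41883509 to 41883715) a site had 122 and 230 WT fragments, against 91.4 and 112, with folds of 1.33 and 2.05. At both of these sites the 2 WT pileups exceeded the MT level of their own list, and the margin was under 2-fold except for WT replicate 2 on chromosome 10.

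The long stretches were unevenly filled. Chromosome 1 had 84 far shared peaks between EMBP1 and LOC101929814, all of them in the first part of a stretch of 21.7 Mb. Chromosome 18 had 81 between LOC644669 and ROCK1. Chromosome 19 had 74 between LOC124904678 and LOC105372345, and chromosome 2 had 60 between IGKV1OR2-2 and BMS1P23, at 28.3 per Mb of far DNA the densest of these stretches. Chromosome 9 followed with 24, chromosome 17 with 20, chromosome 20 with 12 and chromosome 10 with 11. The remaining long stretches described here held at most 2 each, and those of chromosomes 3, 6 and 11 and 1 of 2 on chromosome 7 held none.

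The MT levels differed among these stretches. The median MT level in the list of WT replicate 1 was 2.38 fragments on chromosome 18 and 2.64 on chromosome 2, whereas it was 5.13 on chromosome 1, 4.66 on chromosome 19 and 10.1 on chromosome 10. The median folds were 3.37 in WT replicate 1 and 3.56 in WT replicate 2 on chromosome 18 and 3.32 and 3.38 on chromosome 2, against 2.80 and 2.94 on chromosome 1 and 2.62 and 2.68 on chromosome 10. On chromosome 17 the list of WT replicate 1 had a median MT level of 5.46 and a median fold of 2.79, close to that of chromosome 1. WT replicate 2 had a median fold of 3.51 on chromosome 17. Its own list was not summarised for MT level by stretch, so that fold cannot be set against the level of 5.46. The 5 sites farthest from any gene all lay on chromosome 1, 3108.04 to 3186.56 kb beyond the pseudogene EMBP1. Their folds were 1.85 to 3.53 in WT replicate 1 and 2.50 to 3.85 in WT replicate 2.

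In the shorter stretches the peaks were spread over all 22 autosomes. Their density ranged from 1.23 per Mb of far DNA on chromosome 18 to 6.57 on chromosome 17, with a median over chromosomes of 2.81. Chromosome 19, which is gene-dense and has 2.36 Mb of such DNA, had 10 of these peaks at 4.24 per Mb. The gene-poor chromosomes 4 and 13 stood at 2.54 and 1.48 per Mb. Of 7226 shorter stretches long enough to hold far DNA, 996 (13.8%) held at least 1 far shared peak, 735 of them exactly 1.

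**Figure D4:**
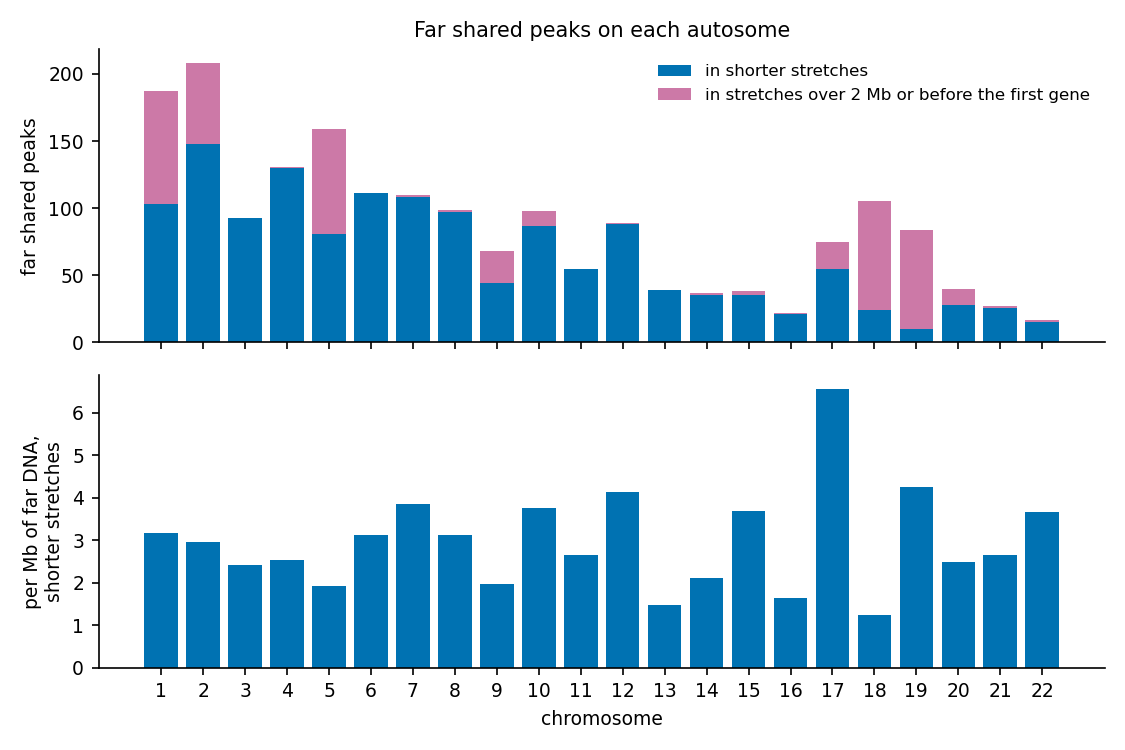
Upper panel, number of far shared peaks on each autosome, split into shorter stretches and stretches over 2 Mb (with 3 before the first gene of chromosome 15). Lower panel, far shared peaks per Mb of far DNA in the shorter stretches alone; chromosomes 1, 2, 5, 18 and 19 carry most of the peaks of the long stretches, and chromosome 17 has the highest density outside them.

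The nearest gene of a far peak in the shorter stretches was most often an lncRNA gene (641 peaks, 44.7%), then a protein-coding gene (437, 30.5%) and a pseudogene (298, 20.8%). Among all RefSeq autosomal genes these classes make up 31.25%, 33.8% and 25.2%. Those shares are not limited to genes that border far DNA, so they give no baseline for the nearest gene of a far peak. The distance to the nearest protein-coding gene had a median of 76.8 kb, with 513 peaks within 50 kb and 91 over 500 kb.

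The peaks with the best ranks of fold in both WT libraries all lay in shorter stretches. A pair of peaks tied for the best rank. The first lay on chromosome 17 (17009842 to 17011795), beside LINC02090 and between TNFRSF13B, which encodes a B cell receptor of the TNF receptor family, and MPRIP, which encodes a regulator of myosin phosphatase. The WT pileups were 49 fragments (replicate 1) and 39 (replicate 2), against MT levels at the floor of 1.87 and 2.20, and folds of 17.4 and 12.52. The second, on chromosome 2 (231671121 to 231675433), was 4313 bp long and lay 35.1 kb from PTMA, the prothymosin alpha gene. It had 57 and 48 WT fragments, against MT levels of 2.33 and 2.41, and folds of 17.4 and 14.4, which was the highest fold of any far peak in WT replicate 2. Next in rank, on chromosome 10 (73965148 to 73967301), a peak lay 32.1 kb from VCL, the gene of the focal adhesion protein vinculin, and 48.5 kb from PLAU, the urokinase gene. It had 49 and 44 WT fragments, against MT levels of 2.27 and 2.67, and folds of 15.3 and 12.3. In each of these 3 peaks both WT pileups stood far above the MT level of their own list, which lay at or near its floor.

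The other 9 of the 12 far peaks with the best ranks came after these. A peak 44.9 kb beyond UTRN, the utrophin gene (chromosome 6, 144895748 to 144899045), had 54 and 36 WT fragments, against MT levels of 2.38 and 2.67, with folds of 16.3 and 10.1. One on chromosome 7 (25854563 to 25855703), with NFE2L3, a transcription factor gene, 297.29 kb away as the nearest protein-coding gene on its right, had folds of 15.0 and 11.3. One on chromosome 17 (64706257 to 64708335), 44.8 kb from SMURF2, which encodes a ubiquitin ligase of TGF-beta signalling, had 13.9 and 10.2. One on chromosome 10 (110397293 to 110400219), 94.1 kb from SMNDC1 and 98.8 kb from DUSP5, an ERK phosphatase gene, had 13.1 and 10.4. One on chromosome 5 (160164934 to 160166304), 21.8 kb from FABP6, the ileal bile acid-binding protein gene, had 13.2 and 9.70. The remaining ones of these 12 lay beside B3GNT2 (13.8 and 12.46), PITRM1 (13.9 and 10.0), FAM20A and ABCA8 (14.8 and 9.82) and TYW2 (13.6 and 9.46), each given as the fold in WT replicate 1 and then in WT replicate 2. In all 12 the fold was higher in WT replicate 1, as it was in 1115 of the 1433 far peaks of the shorter stretches (77.8%) and in 77.2% of all shared peaks.

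Folds of 10 or more in both WT libraries were found at 13 far shared peaks (0.687%), all in shorter stretches, against 1.66% of the shared peaks nearer to genes. Folds of 5 or more in both were found at 421 far peaks of the shorter stretches (29.4%) and at 1 of those of the long stretches (0.218%), against 42.1% of the nearer shared peaks. Across the far peaks of the shorter stretches Spearman's rho between the folds of both lists was 0.549, across those of the long stretches 0.388 and across the nearer shared peaks 0.651. These are correlations across sites that share the MT library. Summits of both lists were at most 250 bp apart at 66.9% of the far peaks of the shorter stretches and 62.1% of those of the long stretches, close to the 63.7% of nearer shared peaks. The rule that peaks overlap keeps their summits near each other.

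Far peaks of the shorter stretches had a median length of 862 bp in WT replicate 1 and 534 bp in WT replicate 2, while those of the long stretches had 502 bp and 544 bp. The longest was 6388 bp on chromosome 9 (21579204 to 21585591), 22.0 kb from MIR31HG, the host gene of the microRNA miR-31, with folds of 11.2 and 7.36. Next came peaks of 5521 bp on chromosome 12 (88930682 to 88936202, between KITLG and DUSP6), 5147 bp on chromosome 4 (186804379 to 186809525, beside FAT1), 4674 bp on chromosome 7 (80276588 to 80281261, beside GNAI1) and 4490 bp on chromosome 10 (22821633 to 22826122, between PIP4K2A and ARMC3). The peaks beside MIR31HG and between PIP4K2A and ARMC3 were also long in WT replicate 2, at 3538 and 3609 bp. Between PIP4K2A and ARMC3 the summits of both lists were 2445 bp apart, with folds of 12.4 and 4.01. The others met shorter peaks in WT replicate 2, of 1111 bp between KITLG and DUSP6, 1062 bp beside FAT1 and 1745 bp beside GNAI1.

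A minority of the far peaks stood in groups. Joining peaks no more than 12500 bp apart gave 166 groups of at least 2 in the shorter stretches, which held 402 of the 1433 peaks (28.1%), and 85 groups in the long stretches, which held 224 of 459 (48.8%). A peak of WT replicate 2 could meet more than 1 peak of WT replicate 1. With the peak of highest fold taken for each site, the 1892 sites were matched to 1876 peaks of WT replicate 2.

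The largest group lay on chromosome 4 among genes for ligands of the EGF receptor. In hg38 the genes EPGN, EREG, AREG and BTC, for epigen, epiregulin, amphiregulin and betacellulin, follow each other there. Between AREG and BTC, 15 far shared peaks stood within 65.5 kb (74618406 to 74683863), and they covered 40.5% of it. The first was 164049 bp from AREG and the last was 61991 bp from BTC (74744759 to 74794523), with the lncRNA gene LOC107986229 as the next gene on the left. Their folds were 3.87 to 8.66 in WT replicate 1 and 2.87 to 6.73 in WT replicate 2. The broadest of them, 4252 bp long (74621947 to 74626198), had 44 and 26 WT fragments, against MT levels of 4.20 and 3.01, with folds of 8.66 and 6.73. Near BTC, the peak at 74664532 to 74667339 had 31 and 28 WT fragments, against MT levels of 2.80 and 4.32, with folds of 8.43 and 5.45. The stretch had 125 far shared peaks per Mb of far DNA, against 2.77 over all shorter stretches.

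A smaller group of 3 stood on the other side of AREG, in the gap between EREG and AREG. Its middle peak (74416953 to 74418965) had 46 and 40 WT fragments and folds of 11.1 and 8.30, with 7.21 and 4.33 for the peak at its right and 4.06 and 2.70 for that at its left. Counting both gaps, AREG was a protein-coding neighbour of 18 far shared peaks, more than any other gene. Their median folds were 5.94 in WT replicate 1 and 4.54 in WT replicate 2. A further shared peak of that gap, at 74407948 to 74409286 (folds of 6.31 and 5.32), stood 19966 bp from EREG, just within the 20 kb limit, and is not among them.

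The second group of the shorter stretches, with 9 peaks within 49.4 kb, lay on chromosome 12 (88921225 to 88970601). Its neighbours are KITLG, which encodes the ligand of the receptor KIT, 342274 bp to the left and DUSP6, an ERK phosphatase gene, 377006 bp to the right. The peaks covered 42.5% of the group, with folds of 4.32 to 7.64 in WT replicate 1 and 3.05 to 6.60 in WT replicate 2. The third group had 8 peaks within 36.4 kb beyond UTRN and held the strong peak described above, whereas the folds of the other 7 reached 8.43 in WT replicate 1 and 8.13 in WT replicate 2. In the groups near BTC and UTRN the same peak was strongest in both lists, with the higher fold in WT replicate 1. On chromosome 12 the strongest peak differed between the lists. The peak with 7.64 in WT replicate 1 had 3.05 in WT replicate 2, and that with 6.60 in WT replicate 2 had 6.56 in WT replicate 1.

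**Figure D5:**
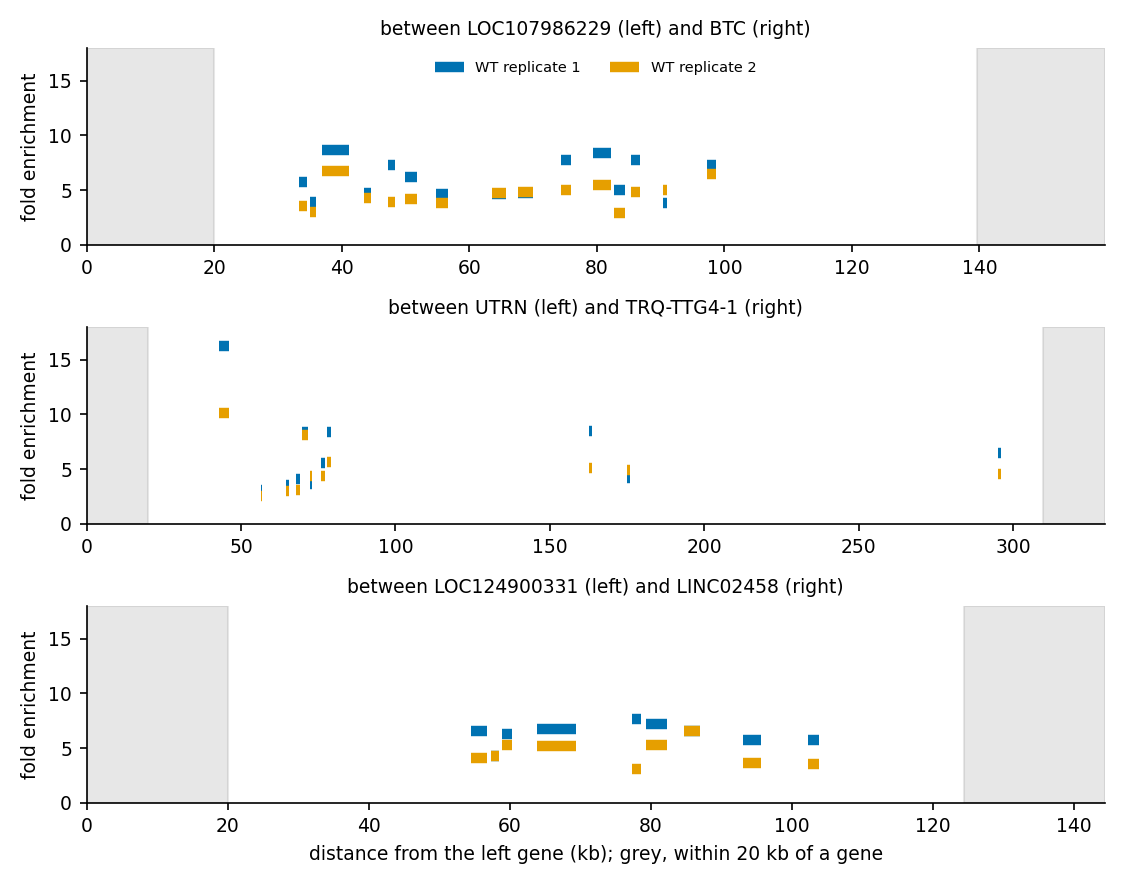
Fold enrichment in WT replicate 1 (blue) and WT replicate 2 (orange, drawn on top) of the far shared peaks in the stretches with the 3 largest groups, against distance from the gene on the left in kb; each bar spans the peak as called in WT replicate 1. Grey marks DNA within 20 kb of a gene, and the bottom panel holds the group between KITLG and DUSP6. The 15 peaks near BTC have folds of 3.87 to 8.66 and 2.87 to 6.73, and the peak nearest to UTRN has 16.3 and 10.1.

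Smaller groups held 5 or 4 peaks. Their highest folds were taken in each list on its own, so a pair of values can come from different peaks. A group of 5 on chromosome 17 (64694092 to 64724715) lay beyond SMURF2 and had folds of up to 13.9 and 10.2. A group of 4 on chromosome 11 (13207666 to 13217861) lay 60297 bp from BMAL1, a core clock gene, with highest folds of 10.2 and 7.90. On chromosome 10 (110353284 to 110365194) 4 peaks lay between SMNDC1 and DUSP5, with highest folds of 7.74 and 5.87. On chromosome 3 (5012923 to 5027031) 4 peaks lay 27895 bp beyond BHLHE40, a transcriptional repressor that acts in the clock and in the response to hypoxia, with highest folds of 8.16 and 6.19. On chromosome 2 (181777655 to 181792162) 4 lay between NEUROD1 and ITPRID2, with highest folds of 8.66 and 4.92. Of the 4 peaks near BMAL1, a pair met the same peak of WT replicate 2, so the value of 7.90 stands for both.

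Counted by protein-coding neighbour in the shorter stretches, the genes with most far shared peaks after AREG were HAS2, the hyaluronan synthase gene, and BTC with 15 each, NYAP2 with 13, and UTRN, IRS1 and KITLG with 12 each. Around HAS2 on chromosome 8 the 15 peaks stood on both sides of the gene, over 1.25 Mb of far DNA. Folds there reached 11.0 in WT replicate 1 and, at another peak, 7.41 in WT replicate 2. IRS1, which encodes an adaptor of the insulin receptor, shared its 12 peaks with NYAP2. Their highest folds were 11.3 in WT replicate 1 and, at another peak, 9.39 in WT replicate 2. Of the 12 peaks the one nearest to IRS1 lay 119 kb from it on chromosome 2 (226611073 to 226612892). It had folds of 9.61 and 9.39, and 9.39 was the highest of the 12 in WT replicate 2.

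The gene lists compared next were chosen with earlier results of these data known, and no list was tested. A gene has a far peak here if it is the nearest protein-coding gene on either side of one in a shorter stretch. The distance between gene and peak was not limited. Of 5557 protein-coding genes beside far DNA, 1574 (28.3%) had one, at 2.77 per Mb of far DNA. Genes differ in how much far DNA they border, with a median of 0.0497 Mb over all these genes, so both the share and the density are given.

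Among AP-1 and early response genes, which growth signals induce quickly, 13 of 23 beside far DNA (56.5%) had a far shared peak, at 8.81 per Mb, and 10 had none. DUSP6 had 10, DUSP5 and TRIB1, which encodes a pseudokinase, had 6 each, and KLF10 had 3. All 6 peaks beside DUSP5 lay nearer to SMNDC1, at 49182 to 94141 bp, than to DUSP5, at 98846 to 143805 bp. Of the peaks beside TRIB1, a group of 3 lay at least 1011040 bp from it, and 97388 bp or more from LRATD2. The highest folds, each taken within its own list, were 7.64 and 6.60 for DUSP6 and 13.1 and 10.4 for DUSP5. They were 8.07 and 8.07 for TRIB1 and 9.52 and 7.51 for KLF10, in WT replicates 1 and 2 in that order. The DUSP6 peak with 7.64 had 3.05 in WT replicate 2. The stretch with 8.07 in WT replicate 1 beside TRIB1 reached only 5.48 in WT replicate 2. Of the intestinal and colorectal transcription factor genes, 11 of 23 (47.8%) had one, at 6.38 per Mb, and 12 had none. SOX9, a transcription factor gene of intestinal stem and Paneth cells, had 11, NR5A2 had 8, KLF4, a gene of differentiated colon epithelium, had 6 and MYC had 4. All 6 peaks beside KLF4 lay 987949 to 1201871 bp from it and nearer to ACTL7B, at 162948 to 376870 bp.

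The peaks beside SOX9 on chromosome 17 were spread over a wide desert. They lay 25.4 to 1257.54 kb from the gene, 8 on its KCNJ2 side and 3 on its SLC39A11 side, with folds of 3.54 to 7.03 in WT replicate 1 and 2.36 to 6.84 in WT replicate 2. The peaks beside NR5A2, a nuclear receptor gene, reached 10.5 in WT replicate 1 and, at another peak, 5.01 in WT replicate 2.

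Growth factor ligand and receptor genes had a far peak in 25 of 49 cases (51.0%), at 4.79 per Mb, where a peak between 2 genes of the list counts for both. Counting each peak and stretch once gave 3.74 per Mb. Both values were lower without the 3 genes AREG, BTC and EREG. The density was then 2.70 per Mb with a peak counted for both genes and 2.67 per Mb with each counted once. Of the remaining 46 genes, 22 (47.8%) had a far peak. AREG led the list with 18, 15 of which it shared with BTC, followed by EFNB2, an ephrin gene, with 6 and JAG1, a Notch ligand gene, with 5. KITLG, a ligand gene with 12 far shared peaks, was not in the list. Among developmental transcription factor genes 32 of 77 (41.6%) had one, at 2.41 per Mb, and 45 had none. RUNX1 had 7, with folds of up to 13.6 and 7.62, and PAX2, TFAP2A and SOX2 had 5 each. The peak with 13.6 and 7.62 lay 883231 bp from RUNX1 and nearer to SETD4, at 102008 bp. Another of the 7 lay 696373 bp from RUNX1 and 288866 bp from SETD4, and the rest were nearer to RUNX1. Neuronal adhesion and synaptic genes beside deserts had one in 19 of 61 cases (31.1%) but at only 0.448 per Mb, since they border 80.3 Mb of far DNA, with a median of 1.02 Mb a gene. PCDH10 and PCDH7, protocadherin genes, had 5 each, TENM3 had 4 and CTNNA2 had 3. By density, the early response and intestinal lists stood above the value of 2.77 per Mb for all such genes, also without DUSP6 (7.24 per Mb) and without SOX9 (5.86 per Mb), their leading genes. The growth factor list, which leaves out KITLG, stood above it only with the locus of AREG, and no density was computed with KITLG added. The developmental list was slightly below 2.77 per Mb and the neuronal list well below it. The neuronal genes were chosen beside deserts. Without the long stretches the density of shared peaks fell from 3.91 per Mb at 20 to 50 kb from genes to 0.635 at 200 to 500 kb. The lists were not matched for distance from genes, so their densities are not like for like.

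The orientation of the protein-coding neighbours went with only small differences in the density of far peaks in the shorter stretches, which were not tested. The density was 3.04 per Mb between divergent genes, 2.67 between convergent genes and 2.57 between genes on the same strand, with 2.88 where a strand was missing. By the nearer protein-coding gene, 588 peaks lay before its start, at 2.84 per Mb, and 519 beyond its end, at 2.58 per Mb. Strands came from a RefSeq promoter table that covered 79.6% of the protein-coding genes.

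On both sides of the 20 kb limit the values overlapped. The 5 far peaks just beyond it, 20004 to 20054 bp from a gene, had folds of 4.18 to 7.99 in WT replicate 1 and 3.44 to 6.26 in WT replicate 2. The 5 shared peaks just short of it, 19904 to 19966 bp from a gene, had folds of 4.02 to 9.06 and 2.79 to 8.45. Base composition, sequence motifs and repeats of these peaks were not analysed here.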

How the data were processed

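The labels' protocols give paired-end reads of 75 bp. According to the submitters' processing notes, the build was hg38 and the tools were ChIPseeker 1.28.3, MACS2 2.1.2 and Bowtie2 2.3.4. Per the file headers, the authors ran MACS2 on fragments once for each WT library with MT replicate 1 as control, keeping narrow peaks of at least 200 bp under a q-value of 0.05, with control windows of 1000 and 10000 bp and at most 2 duplicates. The use of a blacklist is not stated in the labels or headers. The deposited pileup is the WT signal (fragment coverage) at the summit, and the deposited fold enrichment is its ratio to the MT level with 1 added to both. The −log10 q-value and −log10 p-value were also deposited as MACS2 wrote them.

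The MT level was computed from pileup and fold. It was read as MT scaled to the depth of the WT library, since 49.5% and 53.3% of the levels below 10 fragments and above the floor were whole multiples (within 1% of a step) of 0.5 fragments times the WT to MT fragment ratio, against 0.761% and 0.308% without that ratio. A level within 1% of the lowest counted as the floor.

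Genes were 56080 RefSeq entries for GRCh38.p14 on the 22 autosomes. A further 676 entries with positions on unplaced or alternate sequences were left out. Far DNA, gene-free stretches and groups of peaks were computed with pandas 2.3.3 and numpy 2.4.6, and the distance and overlap routines were tested on simulated positions. The sites and the 5 gene lists were chosen with earlier results of these data known. The text names the 12 far peaks with the best worse rank of fold over both lists, the stretches and groups with most far peaks, the 5 farthest, the 5 longest, the 5 on either side of the limit, and in each gene list the 4 genes with most far peaks. The sites of highest MT level, the far peaks around HAS2, IRS1, SOX9 and AREG and the 2 Mb limit were chosen after the values were seen. The alternatives varied the distance, the gene classes, the overlap, the q-value, the MT level, the WT library and the gap that joins peaks. Some far sites of high coverage and the stretch that holds them are not reported here. No test was made, since 1 library stands behind each list and both share the MT library.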

Additional observations from a re-analysis of the deposited data

How the results depend on the processing

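The number of far shared peaks followed the rule: 3109 at 10 kb from genes, 866 at 50 kb, 5783 with protein-coding genes only, 1107 with an overlap of 50% of both peaks, 729 at a −log10 q-value of at least 5 in both lists, 271 at the lowest MT level only, and 3510 to 5311 with 1 WT library left out, against 1892. Their share of shared peaks (6.00%) was 9.87% at 10 kb, 2.75% at 50 kb, 8.80% with protein-coding and lncRNA genes, 18.4% with protein-coding genes only, 4.07% at that q-value, 3.16% at the lowest MT level, 4.55% without the gene-free stretches over 2 Mb, a setting added after the data were seen, and 6.61 to 8.31% with 1 WT library left out. Their density (3.04 per Mb) was 0.436 at the lowest MT level and 5.60 to 8.51 with 1 WT library left out. It was also lower at that q-value (1.17) and with the 50% overlap (1.78), though both counted as within the spread between the WT replicates. That spread, 2.06 per Mb, is between the densities of all far peaks of each WT library and is wide beside 3.04. The share of far peaks of WT replicate 1 found in WT replicate 2 (35.6%) was 20.8% with the 50% overlap, 19.9% at the lowest MT level and, for peaks placed by WT replicate 2, 56.3%. With summits within 250 bp it was 23.9%, which counted as within the spread between the WT replicates. That spread, 14.6 percentage points, is between the overlap shares of 2 lists of unlike size and is wide beside 35.6%. The median fold in WT replicate 1 (4.88) was 3.81 at 50 kb, 5.53 with protein-coding genes only, 6.77 at that q-value, 5.92 at the lowest MT level, 5.57 without the long stretches and 3.76 without WT replicate 2, and that in WT replicate 2 (4.07) was 5.32 at that q-value, 4.69 at the lowest MT level and 3.50 without WT replicate 1. Groups of at least 2 peaks numbered 251 with a joining gap of 12500 bp, 163 with 5 kb and 166 without the long stretches. Among the gene lists, with settings added after the data were seen, the density of the growth factor list (4.79 per Mb) was 2.70 without AREG, BTC and EREG. In all, 60 of the recomputed values stayed within the spread between the WT replicates or within 1.5 times the count or list density, and 33 moved farther. No paired analysis was possible because no result comes from a test and both lists share 1 MT library. A site with few fragments can miss the cutoff in 1 library, so its absence from a list was not detectable at this depth rather than shown, and the part of read placement in satellite repeats was not tested.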

Other observations

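Far from genes, 3419 peaks of WT replicate 1 overlapped no peak of WT replicate 2, and 2183 of them lay in the shorter stretches. Those had a median fold of 3.81 (quartiles 3.23 and 4.50) and a median pileup of 12 fragments in WT replicate 1, whereas the shared ones there had 5.57 and 19 fragments. In the long stretches the 1236 unshared peaks of WT replicate 1 had a median fold of 3.14, close to the 3.07 of the shared ones, with a median pileup of 11 against 14 fragments. Which sites the lists share thus went with fold in the shorter stretches and hardly in the long ones, a difference that was not tested.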
